A study of Mus musculus with 6 samples.

Results

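Transcripts of TGF-beta ligands, receptors and SMADs were described in 4T1, a mouse breast cancer cell line, after exposure to BRQ or to DMSO, the solvent control. The set holds 10 genes, taken by symbol from the 18057 genes of the deposited expression table: the ligand genes Tgfb1, Tgfb2 and Tgfb3, the receptor genes Tgfbr1 and Tgfbr2, the SMAD genes Smad2, Smad3, Smad4 and Smad7, and the corepressor gene Skil. All 10 were in the table. Expression was measured by RNA sequencing in 3 BRQ libraries and 3 DMSO libraries, and the title of the series names an inhibitor of DHODH, an enzyme of de novo pyrimidine synthesis. The labels give neither dose nor duration, and all 6 sample titles carry the letters DHO, which they do not explain. One cell line was used, and the labels do not say whether replicates came from separate cultures, so p-values measure the spread between these libraries, which may be technical.

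TGF-beta ligands are secreted in a latent form bound to their own propeptide. Once released, a ligand binds the type II receptor, encoded by Tgfbr2, which phosphorylates the type I receptor, encoded by Tgfbr1. The type I kinase then phosphorylates SMAD2 and SMAD3, and these join SMAD4 and act on genes in the nucleus. SMAD7 blocks the receptor and SnoN, the product of Skil, represses SMAD-driven transcription. Both genes are induced by the pathway itself. In breast epithelium TGF-beta restrains growth, while in advanced carcinoma cells it is known for promoting invasion.

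Under BRQ the type II receptor gene Tgfbr2 fell 2.79-fold and the ligand gene Tgfb2 fell 3.4-fold, as ratios of mean FPKM (fragments scaled to transcript length and library depth). Smad4, Smad2 and Skil also fell, by smaller factors. Tgfb1 and Tgfb3 rose 1.2-fold and 1.25-fold, Tgfb1 losing its call under one scaling, and Smad3 was called higher by a margin that did not survive other scalings. Tgfbr1 and Smad7 passed no threshold. In all, 8 of the 10 genes had an adjusted p under 0.05 in limma's test on log2(FPKM + 1), 3 of them higher and 5 lower. That share has to be read against the whole table, in which most tested genes differed between the BRQ and DMSO libraries. Of the 10552 tested genes 82.4% were called, 48.7% higher and 33.7% lower. The median log2 fold change of all tested genes was 0.12, and median-ratio, TMM or quantile scaling brought it to between -0.008 and 0.005. Under these scalings 49.0% to 50.2% of all calls were higher, against 59.1% as deposited, and 1 or 2 of the 10 genes were called higher and 6 lower. Called falls of at least 1.5-fold were seen for 4 of the 10 genes and for 14.2% of tested genes, and called falls of at least 2-fold for 2 of the 10 and for 4.87%. The largest rise among the 10 was that of Tgfb3, while 25.1% of tested genes had a called rise of at least 1.5-fold. The BRQ and DMSO values did not overlap for 8 of the 10 genes, 3 with BRQ above and 5 with BRQ below, and for 83.7% of tested genes.

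**Figure D1:**
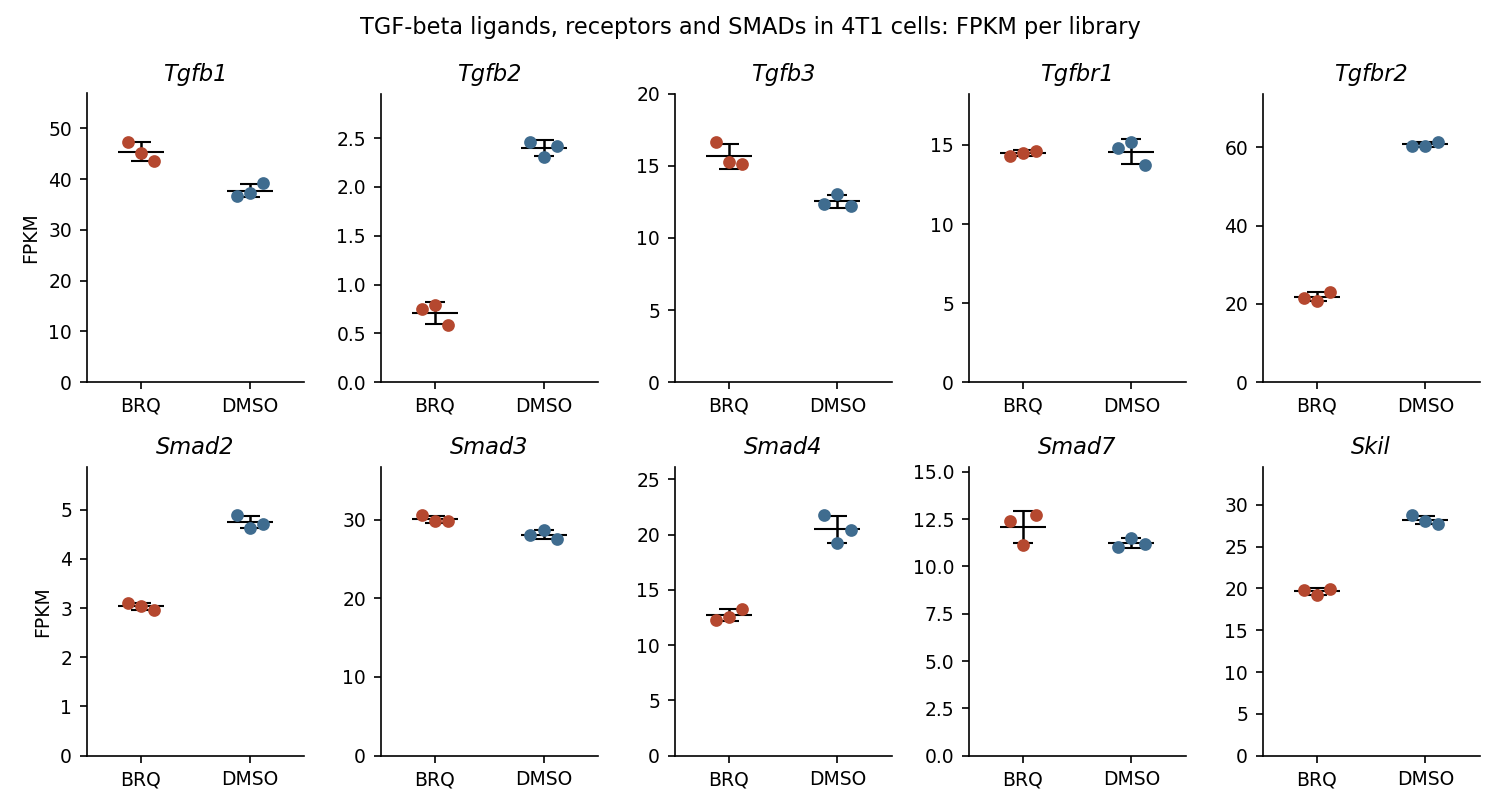
FPKM of the 10 genes in each library (points), with the mean and SD of 3 libraries per group (bars), BRQ at the left and DMSO at the right of each panel. Tgfb2, Tgfbr2, Smad2, Smad4 and Skil lie lower in every BRQ library than in any DMSO library, Tgfb1, Tgfb3 and Smad3 lie higher, and Tgfbr1 and Smad7 overlap.

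The ligand genes moved in opposite directions. Tgfb1, which encodes the most widely made isoform, measured 47.4, 45.2 and 43.6 FPKM in the BRQ libraries, against 36.7, 37.3 and 39.2 FPKM in the DMSO libraries. All BRQ values stood above all DMSO values, by a factor of 1.2 between means (log2 fold change of FPKM + 1 of 0.26, SE 0.0406, limma adjusted p = 0.000163). After quantile normalization the log2 fold change of Tgfb1 was 0.05 and was not called (adjusted p = 0.237, range over all alternatives 3.82e-06 to 0.237). Tgfb3, whose product is known for its part in palate fusion and wound repair, measured 16.7, 15.3 and 15.1 FPKM under BRQ, against 12.3, 13.1 and 12.2 FPKM under DMSO. Its groups did not overlap either (1.25-fold higher, log2 fold change 0.3, SE 0.0507, limma adjusted p = 0.000295). Tgfb3 stayed called under the other scalings, with a log2 fold change as low as 0.17 (adjusted p up to 0.0137 over all alternatives). Tgfb2, the isoform that needs the co-receptor betaglycan for strong binding to the type II receptor, was the scarcest of the 10 genes, with 0.746, 0.791 and 0.582 FPKM under BRQ, against 2.46, 2.31 and 2.42 FPKM under DMSO. Each BRQ library was below 1 FPKM and each DMSO library above 2 FPKM. Its log2 fold change was -1.0 (SE 0.0794, limma adjusted p = 1.08e-06), which understates the fall of so low a gene. On the reads recovered from the values, 133, 137 and 104 under BRQ and 437, 375 and 430 under DMSO, limma-voom gave -1.77. Tgfb2 passed the filter, a mean of at least 1 FPKM over all libraries, through its DMSO values.

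The sum of the 3 ligand genes was 61.8 ± 2.79 FPKM under BRQ and 52.6 ± 1.18 FPKM under DMSO (SD, n = 3 each), as deposited. The summed FPKM of all genes was higher too, at 413739 to 420687 under BRQ and 374509 to 380140 under DMSO. Tgfb1 supplied 73.5 ± 0.358% of that sum under BRQ and 71.6 ± 1.06% under DMSO. Tgfb3 supplied 25.4 ± 0.435% under BRQ and 23.8 ± 1.07% under DMSO. The share of Tgfb2 was 1.15%, 1.29% and 0.981% in the BRQ libraries, against 4.79%, 4.39% and 4.5% in the DMSO libraries. With 3 libraries against 3, the exact two-sided permutation test has 20 regroupings and cannot go below p = 0.1, the value it gave for each of these 4 quantities (0.11 adjusted over the 11 sums, shares and ratios compared here).

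The receptor genes did not move together. Tgfbr2 measured 21.6, 20.7 and 23.0 FPKM under BRQ, against 60.5, 60.3 and 61.5 FPKM under DMSO. The groups lay far apart, and the log2 fold change was -1.44 (SE 0.0406, limma adjusted p = 1.29e-09), with 99.5% of tested genes at a higher log2 fold change. Tgfbr1 measured 14.3, 14.5 and 14.6 FPKM under BRQ, against 14.8, 15.2 and 13.7 FPKM under DMSO, and all BRQ values lay within the DMSO range. Its log2 fold change of -0.01 was not called (95% interval -0.11 to 0.1, limma adjusted p = 0.878). After median-ratio, TMM or quantile scaling, which take off the upward shift of all genes, it was called lower, by 0.13 to 0.15 on the log2 scale. Within a library, Tgfbr2 stood at 1.51, 1.43 and 1.57 times the FPKM of Tgfbr1 under BRQ, against 4.09, 3.96 and 4.48 times under DMSO. The ratio thus fell to 1.5 ± 0.0727 in BRQ libraries, against 4.18 ± 0.274 in DMSO libraries (SD, n = 3 each; exact permutation p = 0.1, the smallest possible). A single factor per library, as in median-ratio and TMM scaling, leaves such ratios as they are, while quantile normalization can change them.

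Windows of 250 bases before and 50 after the annotated start are shown for the 2 genes with the largest falls, Tgfb2 and Tgfbr2, and for a ligand and a receptor gene that did not fall with them, Tgfb1 and Tgfbr1. They come from RefSeq on GRCm38.p6, an older build than the GRCm39 of the submitters' processing notes, run 5′ to 3′ on the strand of the gene, and hold matches on either strand to any of 8 motifs in capitals. They lie at chr1:186705940-186706239 (minus strand) for Tgfb2, chr9:116175314-116175613 (minus) for Tgfbr2, chr7:25686752-25687051 (plus) for Tgfb1 and chr4:47352972-47353271 (plus) for Tgfbr1.
Tgfb2: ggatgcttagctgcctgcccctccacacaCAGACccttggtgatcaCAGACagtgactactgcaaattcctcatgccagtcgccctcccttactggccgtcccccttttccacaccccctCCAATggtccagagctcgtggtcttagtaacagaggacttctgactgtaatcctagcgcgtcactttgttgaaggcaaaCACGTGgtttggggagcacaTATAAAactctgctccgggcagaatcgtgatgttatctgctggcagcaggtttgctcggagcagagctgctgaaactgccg
Tgfbr2: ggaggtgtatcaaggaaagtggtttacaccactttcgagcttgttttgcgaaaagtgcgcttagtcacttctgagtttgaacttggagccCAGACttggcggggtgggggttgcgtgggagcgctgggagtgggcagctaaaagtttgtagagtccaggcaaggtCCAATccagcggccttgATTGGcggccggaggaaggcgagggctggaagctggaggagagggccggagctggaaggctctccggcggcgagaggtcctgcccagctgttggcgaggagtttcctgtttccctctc
Tgfb1: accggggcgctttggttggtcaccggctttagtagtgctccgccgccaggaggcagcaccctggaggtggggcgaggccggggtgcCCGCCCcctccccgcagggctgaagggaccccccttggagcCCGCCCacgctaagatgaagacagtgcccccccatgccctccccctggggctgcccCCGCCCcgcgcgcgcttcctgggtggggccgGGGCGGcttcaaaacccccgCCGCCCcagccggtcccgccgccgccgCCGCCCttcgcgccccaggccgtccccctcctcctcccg
Tgfbr1: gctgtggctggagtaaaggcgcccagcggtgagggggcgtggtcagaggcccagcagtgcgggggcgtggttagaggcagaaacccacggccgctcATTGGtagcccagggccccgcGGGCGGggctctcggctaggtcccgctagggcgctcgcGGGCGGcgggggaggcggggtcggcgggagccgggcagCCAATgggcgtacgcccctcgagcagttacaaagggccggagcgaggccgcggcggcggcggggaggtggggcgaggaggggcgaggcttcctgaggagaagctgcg

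The windows of Tgfb2 and Tgfbr2 hold the short SMAD box CAGAC (2 matches and 1 match) and no GC box GGGCGG. The windows printed for Tgfb1 and Tgfbr1 hold the GC box (6 and 2 matches) and no SMAD box. Tgfbr1 has a second window, not printed, that holds 1 SMAD box and no GC box at 52.0% GC, unlike the first. The SMAD box occurs in 49.6% and GGGCGG in 35.7% of the 32851 windows of the table. The Tgfb2 window is the one of these 4 with a TATAAA, 31 bases before the start, and with an E-box CACGTG; they occur in 13.6% and 7.15% of windows. CCAAT, found in 37.4% of windows, occurs in those of Tgfb2, Tgfbr2 and Tgfbr1. None of the 4 holds the cyclic AMP response element TGACGTCA (1.79% of windows), the AP-1 site TGANTCA (7.81%) or the TEAD site GGAATG (14.7%). GC content was 54.3% for Tgfb2 and 59.0% for Tgfbr2, against 77.0% for Tgfb1, 74.7% for Tgfbr1 and a median of 52.7% for all windows. Windows were matched for 5 of the 10 genes, the other being that of Smad3 (67.7% GC, 2 GC boxes, no CAGAC). The first transcribed bases of the Tgfbr2 window were not found in the GENCODE transcripts of that gene, while those of the other 3 windows were. A match is a description of these letters and not a site of binding.

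Among the signal-carrying SMAD genes, 2 fell. Smad4, which encodes the partner shared with the BMP branch, measured 12.2, 12.5 and 13.3 FPKM under BRQ, against 21.8, 19.3 and 20.4 FPKM under DMSO. It was 1.61-fold lower with no overlap (log2 fold change -0.65, SE 0.0527, limma adjusted p = 1.24e-06). Smad2 measured 3.1, 3.05 and 2.96 FPKM under BRQ, against 4.89, 4.64 and 4.72 FPKM under DMSO. It was 1.57-fold lower, again with no overlap (log2 fold change -0.51, SE 0.0576, limma adjusted p = 1.51e-05). Smad3, which encodes the receptor-activated SMAD that binds DNA directly, measured 30.6, 29.8 and 29.8 FPKM under BRQ, against 28.1, 28.7 and 27.5 FPKM under DMSO. The groups did not overlap, but they differed by a factor of 1.07 (log2 fold change 0.09, SE 0.0342, limma adjusted p = 0.0275). That call was lost without BRQ replicate 1 (adjusted p = 0.0948), without DMSO replicate 1 (0.0589) and without DMSO replicate 3 (0.0863). The sign turned under median-ratio and TMM scaling (both -0.03) and under quantile normalization (-0.08), with the range of adjusted p over all alternatives from 0.0102 to 0.421. Relative to all tested genes, whose median log2 fold change was 0.12, Smad3 stood at -0.02.

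The balance among these genes shifted towards Smad3 as Smad2 and Smad4 fell, while Smad3 itself differed by a factor of 1.07. Smad3 had 9.87, 9.77 and 10.1 times the FPKM of Smad2 in the BRQ libraries, against 5.74, 6.18 and 5.83 times in the DMSO libraries. Its ratio to Smad4 was 2.37 ± 0.13 under BRQ and 1.38 ± 0.101 under DMSO (SD, n = 3 each). Both ratios had separate groups and an exact permutation p of 0.1, the smallest possible. Summed, Smad2, Smad3 and Smad4 had 45.8 ± 0.315 FPKM under BRQ and 53.3 ± 1.22 FPKM under DMSO.

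Both negative regulators were measured well above the level for testing. Skil measured 19.8, 19.2 and 19.96 FPKM under BRQ, against 28.8, 28.1 and 27.7 FPKM under DMSO. The groups were separate, with a 1.44-fold fall (log2 fold change -0.5, SE 0.0362, limma adjusted p = 5.27e-07). Its close relative Ski, which encodes the other corepressor of this pair, also fell (limma adjusted p = 2.31e-07), to 16.8 ± 0.0697 FPKM under BRQ, against 25.3 ± 0.576 FPKM under DMSO. The ratio of Skil to Ski was 1.17 ± 0.0275 under BRQ and 1.11 ± 0.0446 under DMSO, with overlapping groups (exact permutation p = 0.2). Smad7 measured 12.4, 11.1 and 12.7 FPKM under BRQ, against 11.01, 11.5 and 11.2 FPKM under DMSO. BRQ replicate 2 lay within the DMSO range, and the log2 fold change of 0.1 was not called (95% interval -0.03 to 0.22, limma adjusted p = 0.132). Without BRQ replicate 2 it was called higher (0.15, adjusted p = 0.0207, range over all alternatives 0.0207 to 0.771), and under the 3 other scalings its sign was negative and not called. Against Smad4 it stood at a ratio of 1.01, 0.886 and 0.956 in the BRQ libraries, against 0.506, 0.597 and 0.547 in the DMSO libraries.

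**Figure D2:**
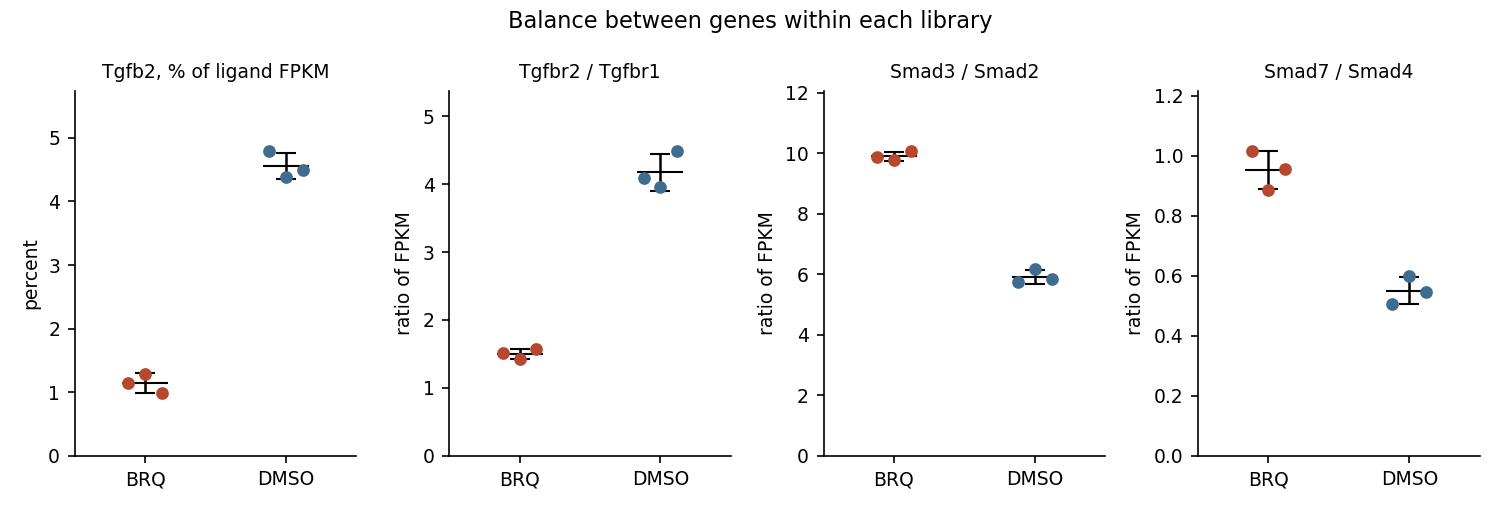
Share of Tgfb2 in the summed FPKM of the ligand genes (percent) and 3 ratios of FPKM between genes, per library (points) with mean and SD of 3 libraries (bars), BRQ at the left and DMSO at the right. The Tgfbr2 to Tgfbr1 ratio is near 1.5 under BRQ and 4.18 under DMSO, and the Smad3 to Smad2 ratio near 9.9 under BRQ and 5.92 under DMSO.

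**Figure D3:**
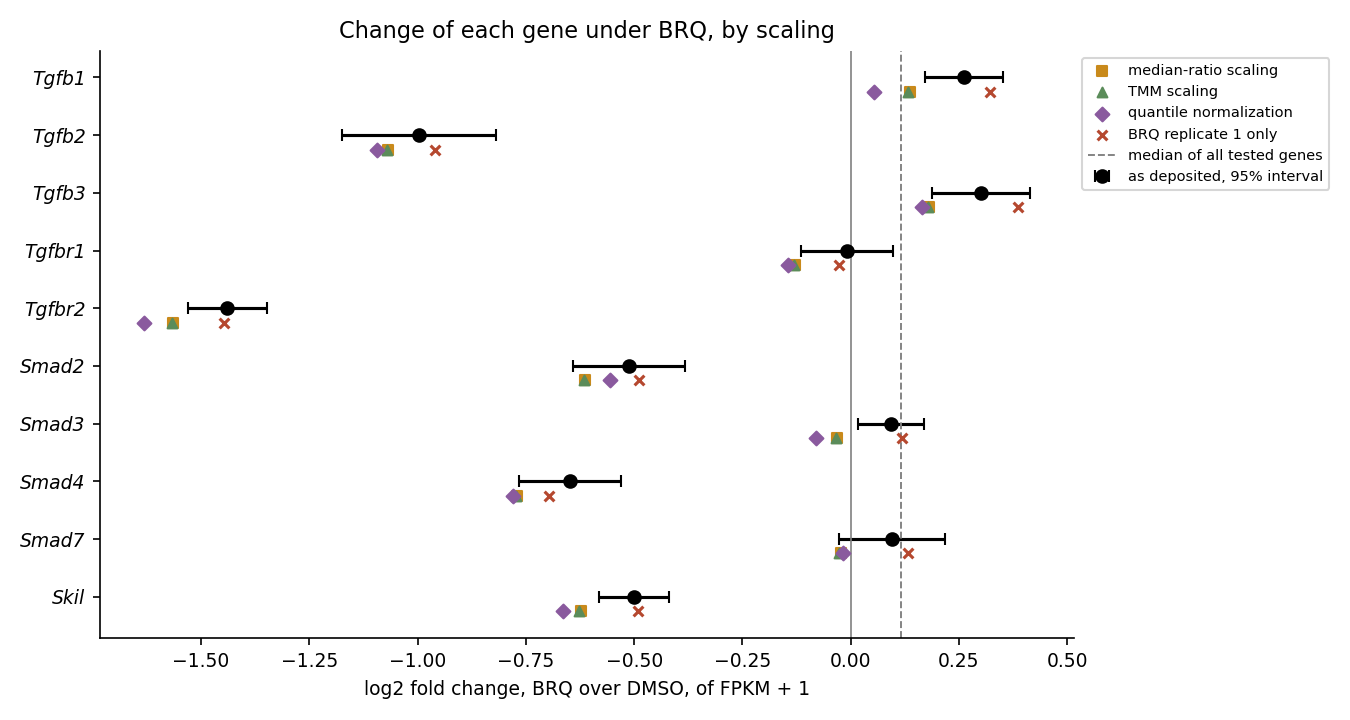
Log2 fold change of FPKM + 1, BRQ over DMSO, for each of the 10 genes (black points with 95% intervals), with 3 other scalings and with BRQ replicate 1 set alone against DMSO (coloured marks). Tgfbr2 lies at -1.44 and Tgfb2 at -1.0 with every mark of both below 0, while the marks of Smad3 and Smad7 fall on both sides of 0.

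The order of the genes by FPKM, a level per length, differed between the groups. Under BRQ, Tgfb1 (45.4 ± 1.89 FPKM) stood first, followed by Smad3 (30.0 ± 0.449), Tgfbr2 (21.8 ± 1.15), Skil (19.6 ± 0.407), Tgfb3 (15.7 ± 0.871), Tgfbr1 (14.5 ± 0.178), Smad4 (12.7 ± 0.545), Smad7 (12.1 ± 0.843), Smad2 (3.03 ± 0.0709) and Tgfb2 (0.706 ± 0.11; SD, n = 3). Neighbours in this order had separate ranges apart from Smad4 and Smad7. Under DMSO, Tgfbr2 (60.7 ± 0.647 FPKM) stood first, then Tgfb1 (37.7 ± 1.32), Skil (28.2 ± 0.525), Smad3 (28.1 ± 0.592), Smad4 (20.5 ± 1.24), Tgfbr1 (14.6 ± 0.779), Tgfb3 (12.5 ± 0.455), Smad7 (11.2 ± 0.261), Smad2 (4.75 ± 0.129) and Tgfb2 (2.4 ± 0.0794; SD, n = 3). Here Skil and Smad3 overlapped. Tgfbr2 thus passed from above Tgfb1 under DMSO to below it under BRQ: the ratio of Tgfb1 to Tgfbr2 was 2.09 ± 0.168 under BRQ and 0.621 ± 0.0158 under DMSO. Such an order depends on the gene lengths behind the FPKM, which, taking the recovered reads as the depth, ran from 2.21 kb for Tgfb1 to 14.3 kb for Smad2. Reads per library ran from 104 for Tgfb2 in BRQ replicate 3 to 10034 for Tgfbr2 in DMSO replicate 3.

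The 10 genes differ in genomic span, and across the table long genes were lower under BRQ. Over 10535 tested genes with a known span, the Spearman correlation between span and log2 fold change was -0.49, a description over genes that are not independent replicates. The median log2 fold change was 0.37 for genes under 25 kb, 0.04 from 25 to 50 kb and -0.31 from 50 kb. Tgfb1 (18.1 kb) and Tgfb3 (22.3 kb), both called higher, are the shortest of the 10. Tgfb2 (86.9 kb), Tgfbr2 (87.7 kb), Smad2 (70.7 kb) and Smad4 (69.0 kb), the 4 with the largest falls, all exceed 50 kb, as does Tgfbr1 (61.7 kb), which was not called. Skil, with a span of 27.9 kb, fell 1.44-fold between means, against 1.57-fold for Smad2, while Smad3, the longest at 111 kb, did not fall. The part of span in these changes was not tested. Annotated long noncoding or small RNA genes overlap Tgfb2, Tgfbr1, Tgfbr2, Smad3 and Smad7. Overlap was taken over whole gene spans, introns included, and none of these RNA genes is in the expression table. No source used here states the strand setting of the counting, so whether their reads were counted with these 5 genes cannot be told.

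**Figure D4:**
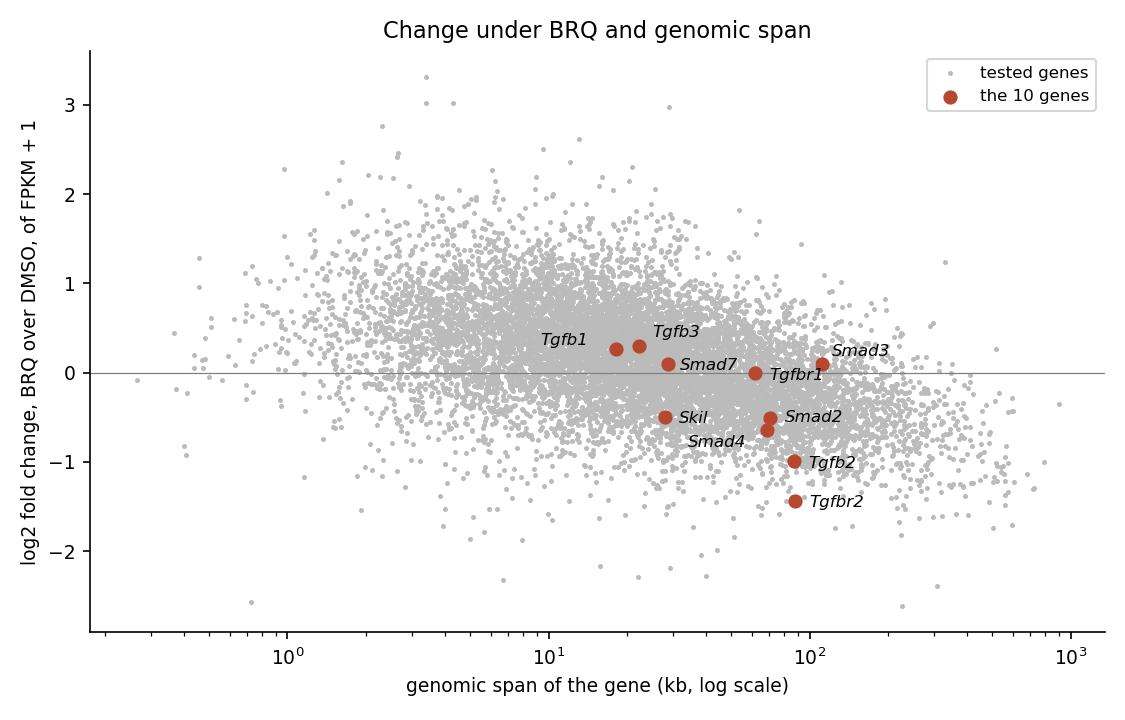
Log2 fold change of FPKM + 1, BRQ over DMSO, against genomic span (kb, log scale) for the tested genes (grey) and the 10 genes (red, named). Smad3, the longest of the 10 at 111 kb, lies above Tgfb2 and Tgfbr2, whose spans are 86.9 and 87.7 kb.

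The wider pathway was followed through 8 lists of related genes. Of their 178 genes, 176 were in the table and 132 reached the level for testing, of which 43 were called higher and 72 lower. Counts and medians are set beside those of all tested genes (48.7% higher, 33.7% lower, median log2 fold change 0.12), with no test of any list. With the 3 other scalings 37 to 39 were higher and 79 lower. Values are means ± SD of 3 libraries per group, and each gene named from the lists had a limma adjusted p of 7.46e-05 or less, Bmp7 excepted.

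Genes that hold or release latent ligand were divided. Of 16 tested genes 4 were higher and 9 lower (median log2 fold change -0.13). Thbs1, whose product thrombospondin 1 can activate latent TGF-beta, fell 2.35-fold to 71.1 ± 2.82 FPKM under BRQ, against 167 ± 6.43 FPKM under DMSO. Ltbp1, which encodes a protein that ties latent TGF-beta to the matrix, fell to 19.4 ± 0.606 FPKM, against 39.2 ± 0.642 FPKM under DMSO. Plau, the urokinase gene, rose to 167 ± 2.61 FPKM under BRQ, against 112 ± 1.57 FPKM under DMSO. The gelatinase gene Mmp9 rose to 31.9 ± 0.713 FPKM, against 22.4 ± 1.21 FPKM under DMSO.

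The other receptors and co-receptors of the family were lower. Of 11 tested genes 9 were called lower in limma's test and the other 2 passed no threshold, with a median of -0.38. Under the 3 other scalings 10 were called lower. Nrp2, a neuropilin that also binds TGF-beta, fell 2.24-fold to 41.7 ± 1.11 FPKM under BRQ, against 93.3 ± 2.38 FPKM under DMSO. Bmpr1a, a type I receptor for BMPs, fell to 9.73 ± 0.183 FPKM, against 19.1 ± 0.476 FPKM under DMSO. Tgfbr3, the betaglycan gene, was chosen after its values were seen. It fell to 1.11 ± 0.0765 FPKM under BRQ, against 2.57 ± 0.318 FPKM under DMSO (log2 fold change -0.76, limma adjusted p = 1.45e-05).

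Other SMADs and receptor adaptors split evenly, with 7 of 14 higher and 7 lower (median -0.09). Smad5, a SMAD of the BMP branch, fell to 8.58 ± 0.453 FPKM under BRQ, against 14.5 ± 0.359 FPKM under DMSO. Cav1, which encodes a caveolar protein that takes part in receptor internalisation, fell to 27.3 ± 1.06 FPKM, against 49.2 ± 1.13 FPKM under DMSO. Tgfbrap1, which encodes a receptor-associated protein, rose to 11.1 ± 0.282 FPKM under BRQ, against 6.49 ± 0.601 FPKM under DMSO. Hgs, an endosomal sorting gene, rose to 47.4 ± 1.18 FPKM, against 32.2 ± 1.19 FPKM under DMSO.

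The list of corepressors, ubiquitin enzymes and other restraints, to which Skil and Smad7 are related by role, had 14 of 21 genes lower and 4 higher (median -0.36). Not every ubiquitin enzyme or deubiquitinase in it restrains the pathway, so these counts do not measure restraint alone. Ncor1, a nuclear corepressor gene, fell to 10.8 ± 0.668 FPKM under BRQ, against 23.0 ± 0.993 FPKM under DMSO. Usp9x, which encodes a deubiquitinase known to act on SMAD4, fell to 10.6 ± 0.707 FPKM, against 22 ± 0.514 FPKM under DMSO. The rises included the homeodomain corepressor gene Tgif2 (8.05 ± 0.317 FPKM under BRQ and 4.96 ± 0.134 under DMSO) and the histone deacetylase gene Hdac1 (81.1 ± 1.21 FPKM under BRQ and 56.4 ± 1.94 under DMSO). Coactivators and DNA-binding partners of SMADs had 11 of 18 genes lower and 3 higher (median -0.18). Creb1 and Runx2, both transcription factor genes, fell to 6.75 ± 0.33 and 5.14 ± 0.532 FPKM under BRQ, against 13.6 ± 0.868 and 10.4 ± 0.284 FPKM under DMSO. The forkhead gene Foxo4 rose to 9.13 ± 0.366 FPKM, against 5.99 ± 0.413 FPKM under DMSO. The acetyltransferase gene Kat2a, called higher (34.8 ± 0.89 FPKM under BRQ, 28.8 ± 0.862 under DMSO), lost its call after quantile normalization (adjusted p = 0.0897, range over all alternatives 6.64e-07 to 0.0897).

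The non-SMAD arm, which runs through TAK1, p38, JNK and cytoskeletal kinases, had 9 of 18 genes higher and 7 lower (median 0.18). Tab1, which encodes an activating partner of TAK1, fell 3.59-fold to 2.33 ± 0.369 FPKM under BRQ, against 8.36 ± 0.584 FPKM under DMSO. Rock2, which encodes a kinase of the actin cytoskeleton, fell to 22.1 ± 1.14 FPKM, against 46.7 ± 1.36 FPKM under DMSO. Traf4 rose to 30.9 ± 0.633 FPKM under BRQ, against 20.4 ± 1.32 FPKM under DMSO, and Map2k3, a kinase gene upstream of p38, rose to 87.5 ± 1.32 FPKM, against 59.4 ± 1.51 FPKM under DMSO.

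Known targets of TGF-beta, many of which answer to other signals too, went both ways, with 14 of 33 higher and 17 lower (median -0.17). The matrix and YAP target gene Ccn1 fell to 227 ± 3.41 FPKM under BRQ, against 397 ± 9.23 FPKM under DMSO, and Thbs1 belongs here as well. Cdkn1a, which encodes the cell cycle inhibitor p21 and is also a p53 target, rose 4.14-fold to 47.7 ± 3.34 FPKM, against 11.5 ± 0.554 FPKM under DMSO. Angptl4 measured 6.25, 6.03 and 4.5 FPKM under BRQ, against 0.91, 0.388 and 0.863 FPKM under DMSO. It reached the levels for testing and for naming through its BRQ values.

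Of the other ligands and secreted antagonists 6 of 19 in the table reached the level for testing, with 2 higher and 2 lower (median 0.19). Fstl3, which encodes an antagonist of activins, rose to 35.1 ± 0.119 FPKM under BRQ, against 18.2 ± 1.1 FPKM under DMSO. Inhba, the activin A subunit gene, fell to 9.69 ± 0.56 FPKM, against 13.7 ± 0.0637 FPKM under DMSO. Bmp7 was called lower (9.9 ± 0.386 FPKM under BRQ, 10.97 ± 0.229 under DMSO; log2 fold change -0.14, limma adjusted p = 0.0215), a call lost under 5 of 16 alternatives, among them leaving out BRQ replicate 1, BRQ replicate 2, DMSO replicate 1 or DMSO replicate 2 (adjusted p 0.0577 to 0.0767).

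**Figure D5:**
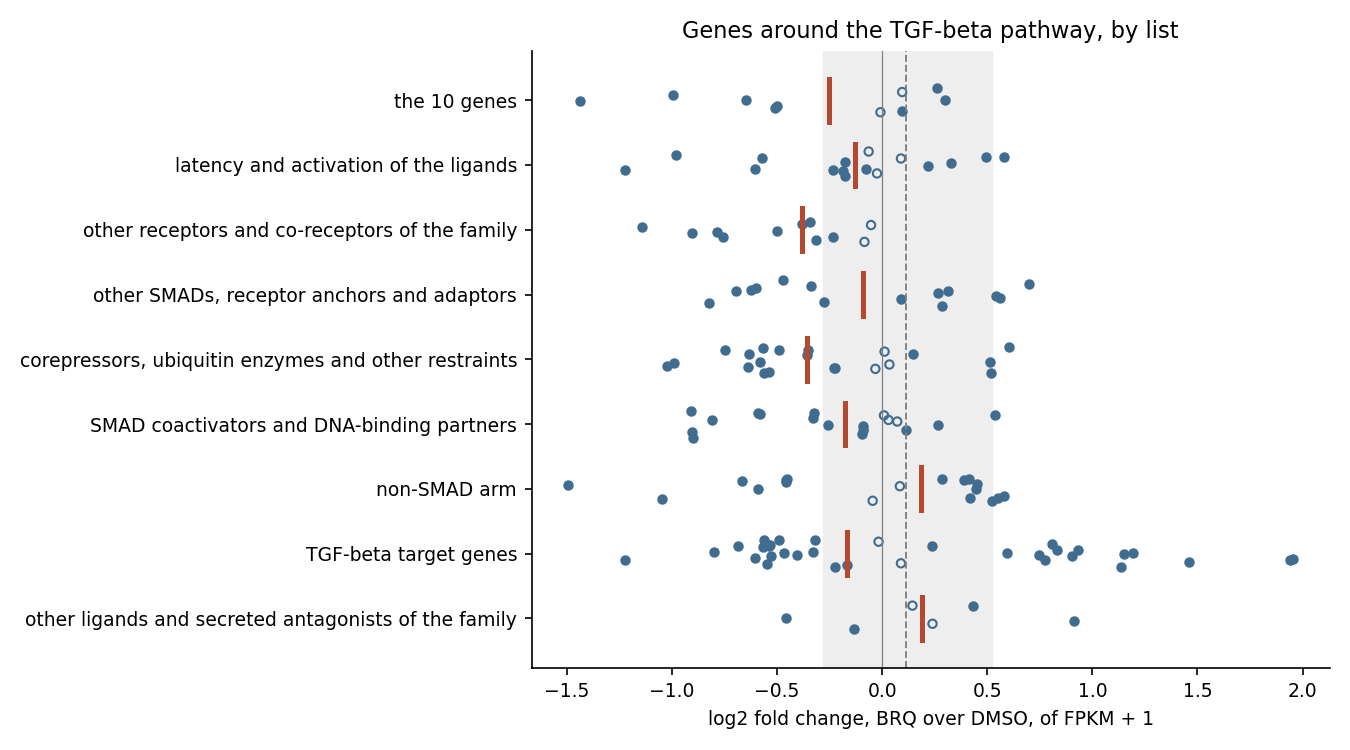
Log2 fold change of FPKM + 1, BRQ over DMSO, of each tested gene in the 10 genes and in 8 lists of related genes (filled points were called, open points were not), with the median of each list (red bar). The grey band runs from the lower to the upper quartile of all tested genes and the dashed line is their median, 0.12.

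Epithelial and other cell types were checked by marker genes, which cannot identify the 4T1 line as such. Epithelial markers such as Krt18, Krt8, Cdh1 and Epcam summed to 1405 to 1447 FPKM under BRQ and 1901 to 1959 FPKM under DMSO. Of the 7 tested, 6 were called lower and 1 higher. The keratin genes made up most of the difference, Krt8 having 404 FPKM under BRQ and 609 under DMSO. Krt14 was lower too (12.9 under BRQ, 28.5 under DMSO), and Krt5 was nearly absent (0.00896 under BRQ, 0 under DMSO). Cdh1 was called lower by a small margin (169.6 under BRQ, 177.5 under DMSO). Epcam was called higher (81.8 under BRQ, 77.2 under DMSO), but its log2 fold change of 0.08 lay below the median of all tested genes, 0.12. Macrophages are a rich source of Tgfb1, and 16 macrophage markers summed to 107, 160 and 155 FPKM in BRQ replicates 1, 2 and 3, against 49.0 to 53.4 FPKM under DMSO. All 5 that reached the level for testing were called higher, but Tyrobp reached it only through its BRQ values. The groups overlapped for Tyrobp and Lyz2. Most of the sum was Cd68 and Cd74, and without these, a split made after the values were seen, it was 19.6, 61.6 and 62.6 FPKM, against 13.2 to 15.2 FPKM under DMSO. Lyz2 measured 3.56, 35.4 and 36.4 FPKM in BRQ replicates 1, 2 and 3, against 4.44 to 5.38 FPKM under DMSO. Tyrobp measured 0.66, 6.06 and 6.54 FPKM, against 0 to 0.725 FPKM under DMSO, and Cd14 12.4 to 15.1 FPKM, against 6.13 to 6.64 FPKM under DMSO. Fcer1g averaged 1.33 FPKM under BRQ and 0.149 under DMSO. The other 10 markers, Adgre1, Csf1r, Ptprc and Itgam among them, were below 1 FPKM in every library, and no macrophage marker was at 0 in all of them. Hepatocyte markers summed to 18.6, 1.41 and 0.662 FPKM in BRQ replicates 1, 2 and 3, against 18.9 to 22.9 FPKM under DMSO. With BRQ replicate 1 alone set against DMSO, the log2 fold change was 0.32 for Tgfb1, 0.39 for Tgfb3 and -1.45 for Tgfbr2. That is 1 library with no spread of its own, and it too had a macrophage sum above those of DMSO. The part of these transcripts in the changes was not tested. Markers of fibroblasts (10.7 to 11.6 FPKM under BRQ, 8.51 to 8.58 under DMSO, mostly Pdgfra), platelets (7.3 to 7.9 under BRQ, 5.6 to 5.8 under DMSO, mostly Ppbp), T cells (1.19 to 2.01 under BRQ, 1.8 to 1.9 under DMSO) and endothelium (1.07 to 1.37 under BRQ, 0.251 to 0.497 under DMSO) were low. Ppbp itself was not called (4.39 FPKM under BRQ, 4.47 under DMSO), while Itga2b was called higher (2.44 under BRQ, 0.924 under DMSO). Pdgfra was called higher (7.77 under BRQ, 4.39 under DMSO), while Col6a3, not tested, was lower (0.227 under BRQ, 1.41 under DMSO). In bulk RNA, fewer cells of a type and less RNA per cell cannot be told apart. Recovered depth ranged from 30955094 to 34067493 reads per library.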

How the data were processed

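Total RNA taken with TRIzol was sequenced by Illumina methods, per the labels' protocols, and fastp, HTSeq and GRCm39 were used, per the submitters' processing notes. No source used here names the aligner, annotation release, strand setting or tool versions. The authors deposited FPKM for 18057 genes, and 8 columns of samples outside this series were not used. Whole reads, within 0.01 reads, were recovered from the steps of the FPKM for all 10552 tested genes, up to a common divisor per gene. Depth limits the precision most for Tgfb2.

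The test was limma 3.58.1 in R 4.3.3, two-sided, with a trended prior and group as the sole term, on log2(FPKM + 1) of genes averaging 1 FPKM or more. A gene was called where its p, adjusted by Benjamini-Hochberg across the tested genes, was under 0.05. Every fold change is BRQ over DMSO. The limma test was tried on simulated data in which few genes changed, unlike these data, so that trial does not cover a shift of most genes. The 10 genes, the lists and the alternatives were chosen with earlier results of these data known. From each list of related genes, the 2 largest called rises and 2 largest called falls with separate groups and at least 5 FPKM in the higher group are named, and others are marked. Spans, overlaps and promoter windows come from RefSeq on GRCm38.p6, matched by Entrez identifier or symbol, and no coordinates were converted. The 16 alternatives were a pseudocount of 0.1, no filter, a filter at 5 FPKM, 3 scalings, a replicate block, a robust prior, limma-voom, each library left out, and BRQ replicate 1 alone.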

Additional observations from a re-analysis of the deposited data

How the results depend on the processing

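Tgfb2, Tgfb3, Tgfbr2, Smad2, Smad4 and Skil kept their direction and call under every alternative in which they were tested. Tgfb1 lost its call after quantile normalization (log2 fold change 0.05, adjusted p = 0.237, range over all alternatives 3.82e-06 to 0.237). Smad3 turned to a log2 fold change of -0.034 under TMM scaling, -0.031 under median-ratio scaling and -0.081 after quantile normalization. Among the 10 genes 1 was called higher after quantile normalization in place of 3, since Tgfb1 and Smad3 dropped out, and 3 were called lower with a filter at 5 FPKM in place of 5, since Tgfb2 and Smad2 were not tested. The log2 ratio of the ligand sum was 0.30 with BRQ replicate 1 alone in place of 0.23. Over all genes, 5143 higher and 3555 lower became 4370 and 4372 under TMM, 4386 and 4348 under median-ratio and 4250 and 4432 under quantile scaling, as the median log2 fold change moved to 0.001, 0.005 and -0.008. With replicate number as a block, 5112 genes were called higher and 3507 lower, and Smad3 lost its call (adjusted p = 0.05002). With BRQ replicate 1 alone the log2 fold change of Smad3 was 0.12. Same-numbered libraries showed no shared deviation (correlations -0.0345 to 0.00398), which cannot show whether they were prepared as pairs. The causes of these changes were not tested.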
